A study of Mus musculus with 23 samples.

Results

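The genes described here encode 7 components of the Nodal signaling pathway measured in mouse embryonic stem cells (ESCs), namely the ligands Nodal and Gdf3, the co-receptor Tdgf1, and the secreted inhibitors Lefty1, Lefty2, Cer1 and Fst. They were chosen by gene name from 23369 gene names in the deposited RNA-seq tables, and each occupies a single row. Expression was measured by sequencing of polyA+ RNA in 3 samples labeled untreated and 3 labeled tamoxifen (800 nM in the sample labels, 72 hr). The other 17 samples of the series, which are ChIP-seq and input libraries for KDM2B, RING1B and SUZ12, were not analysed here.

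Both groups carried the same Kdm2b fl/fl alleles, floxed at an exon for the DNA-binding ZF-CxxC domain of KDM2B, and the same ERT2-Cre recombinase expressed from Rosa26. Tamoxifen activates this Cre and removes the exon. The untreated cells received no tamoxifen, and no Cre-expressing line without floxed alleles was among the samples used here, so an effect of tamoxifen or Cre itself and an effect of the lost domain cannot be told apart. The ESCs were maintained on inactivated mouse embryonic fibroblasts with LIF and serum. The series text gives the dose as 800 µM. Samples were grouped by their labels. For all 6 of them the file names read the other way round. If the file names were right, Nodal would be higher and Lefty2 lower with tamoxifen, and so on for each gene, with sizes and p-values as given.

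Nodal is a TGF-β family ligand that signals through type I and type II activin receptors to SMAD2 and SMAD3, and it requires an EGF-CFC co-receptor such as Tdgf1 (also called Cripto). Activated SMADs act with SMAD4 and FOXH1, and the genes they induce include Nodal itself and its inhibitors Lefty1 and Lefty2, so the pathway contains both a positive and a negative loop. In ESCs the pathway is active through autocrine ligand, and in the embryo it patterns the epiblast and induces mesendoderm.

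At the level of the group means no member of the pathway separated the conditions beyond the spread between samples. Within each replicate number, however, Nodal was lower in the tamoxifen sample than in its untreated partner, while Lefty2 was higher. With the replicate number as a block in the fit both passed the threshold, in opposite directions. Tdgf1, Gdf3, Fst and Lefty1 passed in neither fit, and Cer1 was listed near or at 0 throughout.

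Values are FPKM (fragments corrected for transcript length and for the size of each library), so levels of different genes are compared per length. Read counts are not in the tables and the depth of each library is therefore unknown. FPKM summed to between 549379 and 1045707 per sample. The share of this sum in loci under 300 bp ranged from 23.9% to 67.7% and was highest in replicate 2 of either group (67.7% and 61.6%). All 8 pluripotency markers, Pou5f1, Nanog and Sox2 among them, were at 1 FPKM or more in all 6 samples, summing to between 873 and 1542 FPKM in untreated and between 1201 and 1772 FPKM in tamoxifen samples. The 12 markers of the feeder fibroblasts summed to between 128 and 296 FPKM in untreated and between 181 and 226 FPKM in tamoxifen samples, with Lum at 0 in untreated replicate 1. In bulk RNA, fewer cells of a type and less RNA per cell cannot be told apart. Kdm2b itself was at 27.0, 21.5 and 27.7 FPKM in untreated replicates 1, 2 and 3 and at 19.9, 21.9 and 25.0 FPKM in tamoxifen replicates 1, 2 and 3 (log2 difference −0.19, SE 0.21, limma adjusted p = 0.999, and 0.306 with the block). A whole-gene value does not resolve the floxed exon, and so it checks neither the deletion nor the labels.

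Nodal lies on chromosome 10 at 60880720 to 60888085 (mm9, plus strand, 3 exons), and no other annotated gene overlaps it. It was at 33.5, 63.6 and 34.7 FPKM in untreated replicates 1, 2 and 3, and at 20.0, 38.0 and 25.8 FPKM in tamoxifen replicates 1, 2 and 3. Every tamoxifen value was below its same-numbered untreated value, but tamoxifen replicate 2 was above untreated replicates 1 and 3, so the groups overlapped. The mean was 43.9 ± 17.1 (SD, n = 3) in untreated and 28.0 ± 9.2 (SD, n = 3) in tamoxifen samples. On the log2(FPKM + 0.1) scale, which understates the change of low genes, the difference was −0.63 (SE 0.331, limma adjusted p = 0.999, 95% interval −1.39 to 0.12), a fold of 0.644. The differences within replicates 1, 2 and 3 were −0.74, −0.74 and −0.42. With the replicate block the SE fell to 0.104 and Nodal passed the threshold (limma adjusted p = 0.0135, 95% interval −0.88 to −0.39). The call was lost in the blocked fit without replicate 2 (log2 difference −0.58, limma adjusted p = 0.119) and when FPKM were rescaled to a common sum per sample (log2 difference −0.53, limma adjusted p = 0.0977).

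Lefty2 and Lefty1 are neighboring genes that encode closely related antagonists, which bind Nodal and its co-receptor. Lefty2 lies on chromosome 1 at 182823250 to 182829233 (mm9, plus strand, 4 exons), and 35936 bp beyond its end lies Lefty1, at 182865170 to 182868532 (plus strand, 4 exons). Lefty2 was at 45.8, 160 and 52.6 FPKM in untreated and at 86.9, 199 and 89.4 FPKM in tamoxifen replicates 1, 2 and 3. Each tamoxifen value was above its same-numbered partner, with untreated replicate 2 above tamoxifen replicates 1 and 3. The mean was 86.2 ± 64.1 in untreated and 125 ± 64.2 in tamoxifen samples (SD, n = 3 each), and the log2 difference was 0.67 (SE 0.512, limma adjusted p = 0.999, 95% interval −0.50 to 1.83), a fold of 1.59. With the replicate block the SE was 0.127 and Lefty2 passed the threshold (limma adjusted p = 0.0204, 95% interval 0.37 to 0.96). Its differences within replicates 1, 2 and 3 were 0.92, 0.32 and 0.77. The blocked call was lost without replicate 3 (log2 difference 0.62, limma adjusted p = 0.0515). Without untreated replicate 2 the unblocked difference was 1.24, and without tamoxifen replicate 2 it was 0.28.

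Lefty1 was at 79.1, 207 and 56.4 FPKM in untreated and at 85.4, 205 and 106 FPKM in tamoxifen replicates 1, 2 and 3. Replicate 2 was highest in either group and nearly level between them, and the largest step was in replicate 3. The mean was 114 ± 81.3 in untreated and 132 ± 63.9 in tamoxifen samples (SD, n = 3 each). The log2 difference of 0.33 did not pass (SE 0.505, limma adjusted p = 0.999). With the block it did not pass either (SE 0.171, limma adjusted p = 0.232), and the interval of −0.065 to 0.73 includes the blocked estimate of Lefty2. The coding sequences of the Lefty genes are 91.9% identical, and 17.5% of the 51-base windows of the Lefty1 transcript also occur in that of Lefty2, against 11.3% in the reverse direction. The Lefty2 transcript also had 198 alignments of at least 300 bp outside its own locus in mm9, Lefty1 among them, the longest over 1014 bp. Of its 51-base windows 6.9% occur within these alignments. That count leaves out shorter matches and exon junctions, and it is below the 11.3% shared with the Lefty1 transcript. How the authors' software divided reads that match several places is not given in the sources used here. The level of each Lefty gene is therefore uncertain.

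Tdgf1 was the most abundant of the genes. This co-receptor gene lies on chromosome 9 at 110842112 to 110848662 (mm9, minus strand, 6 exons). It was at 307, 618 and 285 FPKM in untreated and at 308, 460 and 327 FPKM in tamoxifen replicates 1, 2 and 3. Untreated replicate 2 stood highest, and the remaining values of both groups lay within a narrow band apart from tamoxifen replicate 2. The log2 difference was −0.072 (SE 0.365, limma adjusted p = 0.999). With the block it was not past the threshold (limma adjusted p = 0.744) and the 95% interval ran from −0.38 to 0.23. Of the 51-base windows of the Tdgf1 transcript 26.9% also occur elsewhere in mm9, counted within alignments of at least 300 bp. The longest such alignment covers 1009 bp at 96.7% identity on chromosome 16, so the Tdgf1 level depends on how reads from these copies were assigned.

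Gdf3, a TGF-β family ligand related to Nodal that also uses an EGF-CFC co-receptor, lies on chromosome 6 at 122555421 to 122560089 (mm9, minus strand, 2 exons). It was at 42.8, 90.7 and 51.7 FPKM in untreated and at 49.3, 75.1 and 57.1 FPKM in tamoxifen replicates 1, 2 and 3. The groups overlapped, and the sign of the difference was positive in replicates 1 and 3 and negative in replicate 2. The log2 difference was 0.025 (SE 0.316, limma adjusted p = 1.0). With the block the limma adjusted p was 0.907 and the 95% interval ran from −0.24 to 0.29.

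Fst encodes follistatin, which binds activins and has little affinity for Nodal, and lies on chromosome 13 at 115242470 to 115248938 (mm9, minus strand, 6 exons). It was at 2.03, 5.88 and 6.70 FPKM in untreated and at 2.51, 4.98 and 6.24 FPKM in tamoxifen replicates 1, 2 and 3. Replicate 1 was lowest and replicate 3 highest in either group. The log2 difference was −0.015 (SE 0.496, limma adjusted p = 1.0), and with the block the limma adjusted p was 0.959 with a 95% interval of −0.35 to 0.32. Cer1, a secreted antagonist of Nodal, BMP and WNT ligands, lies on chromosome 4 at 82527655 to 82531055 (mm9, minus strand, 2 exons). It was listed at 0 in 4 of 6 samples, at 0.0240 FPKM in untreated replicate 1 and at 0.0736 FPKM in tamoxifen replicate 3, below the minimum for a test of 0.5 FPKM in at least 3 samples.

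**Figure D1:**
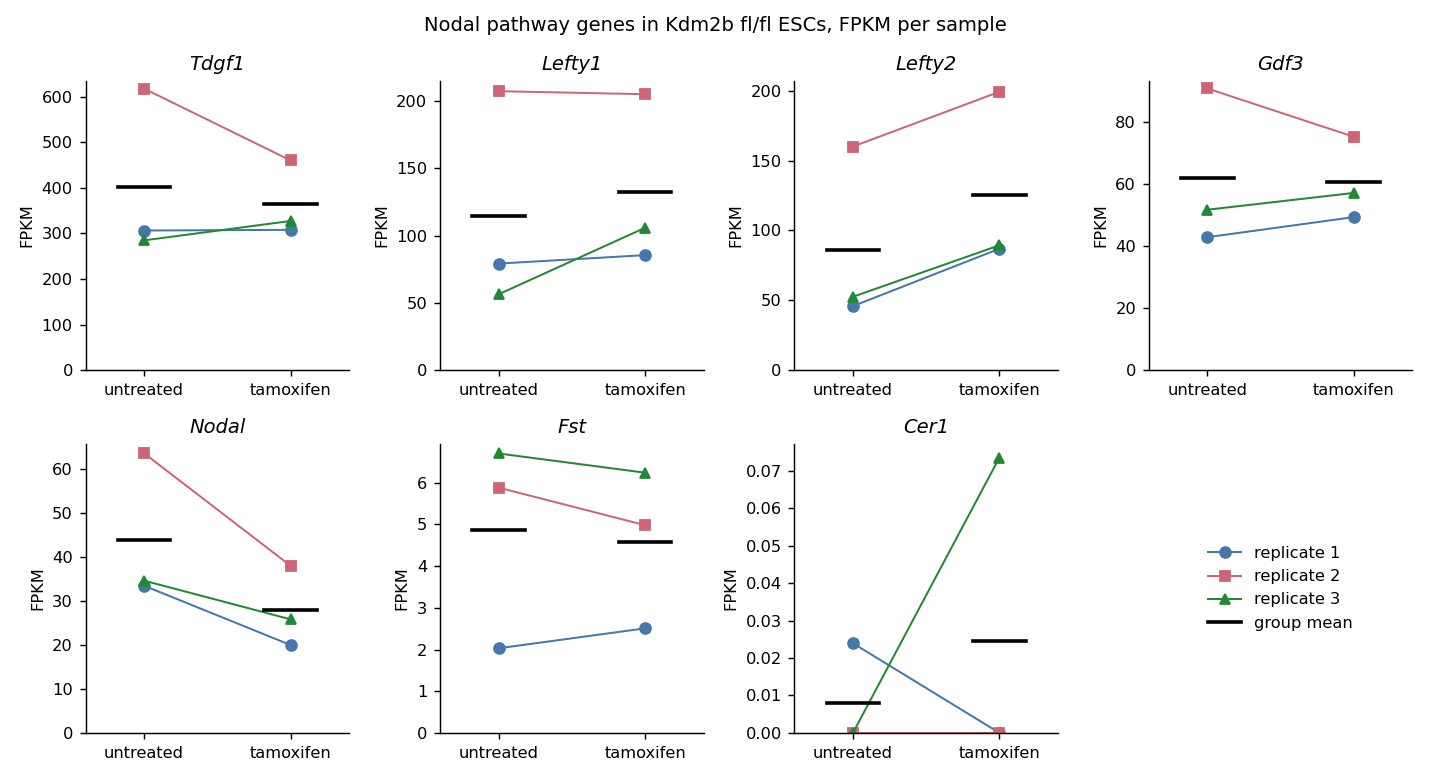
FPKM (y axis, linear, from 0) of the 7 genes in untreated and tamoxifen samples, with same-numbered replicates joined by a line and black bars for group means (n = 3). All 3 Nodal lines descend and all 3 Lefty2 lines ascend, while the groups overlap for every gene and replicate 2 (squares) is highest for Nodal, Lefty1, Lefty2, Tdgf1 and Gdf3.

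The 7 genes were read against the whole table. Of 12997 genes tested, limma without a block called 4 (0.0308%), of which 3 (0.0231%) were higher and 1 (0.00769%) lower in tamoxifen samples. It called 0 of the 6 tested members, and 0 of them had an unadjusted limma p under 0.05, as did 623 genes (4.79%) of the whole table. Once the replicate block was included, 1350 genes (10.4%) passed, 563 (4.33%) in the upward and 787 (6.06%) in the downward direction, and among the members 1 was higher (Lefty2) and 1 lower (Nodal). Only Nodal was lower within all 3 replicate numbers, as were 28.2% of all genes tested, and only Lefty2 was higher within all 3, as were 24.8%. For 0 members did the groups separate fully, against 3.09% of genes with every tamoxifen sample above and 5.4% with every tamoxifen sample below the untreated ones. The median log2 difference was 0.0050 for the 6 tested members and −0.019 for all genes tested.

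Since each library is scaled as a whole, the ratio of a pair of genes within it does not depend on that scaling. Ratios were examined after the values had been seen and carry no test. Nodal relative to Lefty1 was 0.423, 0.307 and 0.615 in untreated and 0.234, 0.186 and 0.244 in tamoxifen replicates 1, 2 and 3. Relative to Lefty2 it was 0.731, 0.398 and 0.659 in untreated and 0.230, 0.191 and 0.289 in tamoxifen replicates. In both cases every tamoxifen ratio was below every untreated one. Relative to its co-receptor Tdgf1, Nodal was at 0.109, 0.103 and 0.122 in untreated and at 0.0649, 0.0826 and 0.0789 in tamoxifen replicates. Relative to Gdf3 it was at 0.783, 0.702 and 0.671 in untreated and at 0.406, 0.506 and 0.453 in tamoxifen replicates. These groups did not overlap either, so that 4 of the 5 ratios with Nodal separated the groups, and the ratio to Fst was lower within each replicate number but overlapped between groups. Of 12996 genes set against Nodal in this way, 1515 (11.7%) gave a lower ratio in all tamoxifen samples. Among all 15 pairs of tested members 5 separated the groups, and the only pair without Nodal was Lefty2 relative to Tdgf1, at 0.150, 0.259 and 0.185 in untreated and 0.282, 0.433 and 0.273 in tamoxifen replicates. A share over all genes was not computed for pairs without Nodal. Pairs that hold the same gene reuse its values, so the 5 pairs are not separate observations.

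**Figure D2:**
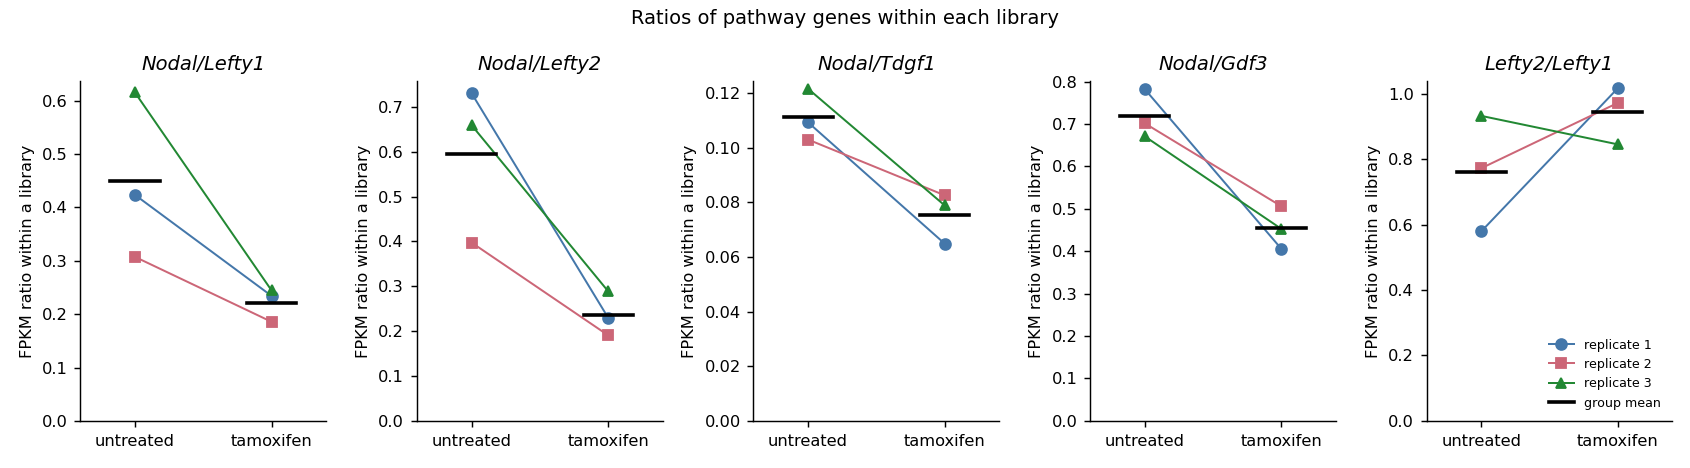
Ratios of FPKM within each library (y axes, linear, from 0) for Nodal over Lefty1, Lefty2, Tdgf1 and Gdf3 and for Lefty2 over Lefty1, with same-numbered replicates joined and black bars for group means (n = 3). In the first 4 panels all tamoxifen points lie below all untreated points, whereas Lefty2 over Lefty1 overlaps between groups.

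The samples also differed by replicate number. In an F test on the replicate terms of the blocked limma fit all 6 tested members passed the threshold, with adjusted p between 0.0017 and 0.0067, as did 62.8% of all genes tested. Replicate 2 was highest in both groups for 5 of 6 members, a pattern held by 20.4% of all genes tested. Relative to the mean of replicates 1 and 3 of its group, replicate 2 was 3.25-fold and 2.26-fold for Lefty2, 3.06-fold and 2.14-fold for Lefty1, and 1.87-fold and 1.66-fold for Nodal in untreated and tamoxifen samples, respectively. Tdgf1 stood at 2.09-fold and 1.45-fold and Gdf3 at 1.92-fold and 1.41-fold. The ratio was larger for the Lefty genes than for the ligands and the co-receptor in either group, a difference that was not tested. The libraries of replicate 2 also had the highest share of FPKM in short loci and the largest FPKM sums. When FPKM were rescaled to a common sum only 3 of the 6 members passed the F test. Nodal (limma adjusted p = 0.576), Tdgf1 (0.203) and Gdf3 (0.817) were lost, and Lefty1, Lefty2 and Fst were kept. That sum includes the loci under 300 bp, which held 23.9% of it in untreated replicate 1 and 67.7% in untreated replicate 2. Whether the replicate 2 peak of the lost genes comes from scaling was not tested.

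Fst followed the replicates differently. Replicate 1 was at 0.323 and 0.447 of the mean of replicates 2 and 3 in untreated and tamoxifen samples. The same held in direction for 9 of 12 feeder fibroblast markers, which were lowest in replicate 1 in both groups, as were 4 of the 6 tested members and 25.4% of all genes tested. Col1a1 was at 0.435 and 0.570, Dcn at 0.306 and 0.238 and Thy1 at 0.411 and 0.439 of the mean of replicates 2 and 3. The other 3 markers did not follow this order. Acta2 and Tagln were low in untreated replicate 1 (0.314 and 0.659) but highest in tamoxifen replicate 1 (1.67 and 1.97), and Twist2 was at 1.12 and 0.722. The sum over all 12 markers was lowest in replicate 1 of the untreated group (128 FPKM against 210 and 296) and highest in replicate 1 of the tamoxifen group (226 FPKM against 181 and 192). The part of feeder RNA in the Fst values was not tested.

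**Figure D3:**
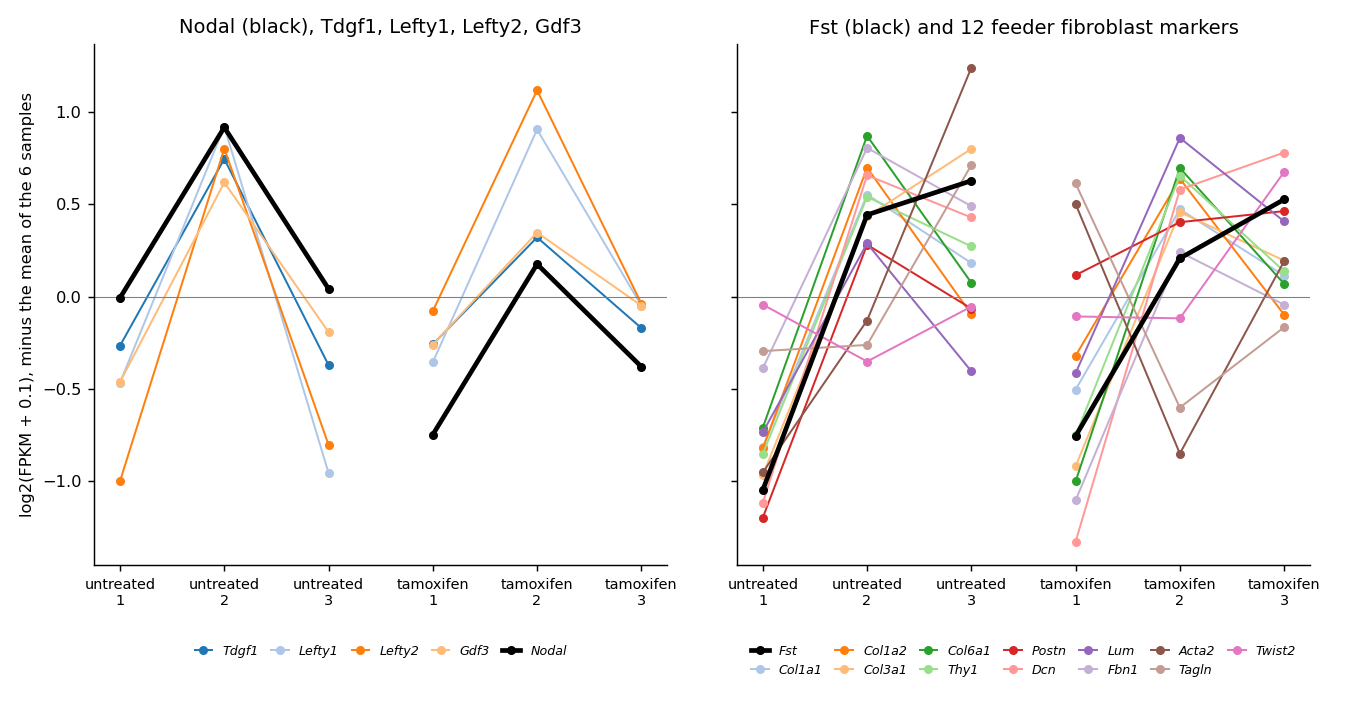
log2(FPKM + 0.1) minus the mean of the 6 samples (y axis) by sample (x axis) for Nodal, Tdgf1, Lefty1, Lefty2 and Gdf3 (left) and for Fst with 12 feeder fibroblast markers (right), with lines joining the samples of a group. On the left every gene peaks in replicate 2 of both groups, and on the right Fst and 9 of the 12 markers are lowest in replicate 1 of both groups.

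The order of levels was the same in both groups by mean FPKM, running from Tdgf1 through Lefty1, Lefty2, Gdf3, Nodal and Fst to Cer1. In untreated samples the ranges of Lefty1 and Lefty2, of Lefty2 and Gdf3, and of Gdf3 and Nodal overlapped, although the order held within each of the 3 libraries. In tamoxifen samples the ranges of Lefty1 and Lefty2 still overlapped, with Lefty1 above Lefty2 in 2 of 3 libraries. By contrast, Gdf3 and Nodal no longer overlapped (49.3 to 75.1 and 20.0 to 38.0 FPKM), nor did Lefty2 and Gdf3.

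The rest of the pathway was described with 32 further genes, of which 27 passed the filter. Limma without a block called 0 of them, with 0 at an unadjusted p under 0.05, and with the block it called 1, Eomes, as lower, where 10.4% of all genes tested were called. Within replicate numbers 14 of the 27 were lower in all 3, as were 28.2% of all genes tested, and 1, Drap1, was higher in all 3, as were 24.8%, and the median log2 difference was −0.23 against −0.019 for all genes. Among other ligands and processing proteases, Gdf1 was listed at 0 in all samples, and Inhba and Inhbb, which encode activin subunits, had log2 differences of 0.35 and −0.46 (limma adjusted p = 0.999 each). Among receptors, Acvr1b, the type I receptor of Nodal and activin, differed by −0.22 and the type II receptor Acvr2a by −0.27, while Acvr1c was below the filter, and 0 of the 4 tested passed in either fit. Of the 8 SMADs and nuclear partners 0 passed in either fit, with log2 differences of 0.012 for Smad2, −0.14 for Smad3 and −0.25 for Smad4. Foxh1, which encodes the DNA-binding partner of the SMADs and was picked out after its values were seen, was at 37.6, 47.2 and 30.0 FPKM in untreated and 26.0, 35.2 and 26.3 FPKM in tamoxifen replicates. It was lower within each replicate number but did not pass (log2 difference −0.38, SE 0.245, limma adjusted p = 0.999, and 0.0555 with the block). With the block it passed when loci under 300 bp were left out before rescaling (limma adjusted p = 0.0319) and with a pseudocount of 1 (0.0457). It did not pass with the block and quantile normalization (limma adjusted p = 0.0560). Leaving out loci under 300 bp before rescaling also moved the median log2 difference over all genes to −0.105.

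Of the 5 other inhibitors 0 passed in either fit. The Nodal antagonist Dand5 had a log2 difference of 0.0093, the activin-binding Fstl3 of −0.32 and Inha, the inhibin α subunit, of −0.77 (limma adjusted p = 0.999 for Fstl3 and Inha and 1.0 for Dand5, and 0.0503 for Inha with the block). Inha passed with the block when loci under 300 bp were left out before rescaling (limma adjusted p = 0.0379), with a pseudocount of 1 (0.0393) and with eBayes without trend (0.0237). It did not pass with the block and quantile normalization (limma adjusted p = 0.0827). Among the 8 other targets of the pathway Mixl1 and Gsc, genes of the early mesendoderm, were below the filter. Smad7, Skil and Pmepa1, negative regulators that TGF-β signals induce, differed by −0.24, −0.20 and −0.34, and none of these 3 passed in either fit. Eomes, a T-box factor of the primitive streak, was at 3.61, 1.99 and 3.53 FPKM in untreated and at 1.95, 1.50 and 1.89 FPKM in tamoxifen replicates 1, 2 and 3. All tamoxifen values were below all untreated ones, by a narrow margin against untreated replicate 2. The log2 difference was −0.70 (SE 0.312, limma adjusted p = 0.999), and with the block Eomes passed the threshold (SE 0.165, limma adjusted p = 0.0377). The blocked call of Eomes was lost without replicate 2 (limma adjusted p = 0.117), without replicate 3 (0.131), with quantile normalization (0.0668) and with rescaling to a common sum (0.225). It was kept when loci under 300 bp were left out before rescaling (limma adjusted p = 0.0236). The groups also separated for Ski, a repressor of SMAD activity (log2 difference −0.32, limma adjusted p = 0.999, and 0.0737 with the block). Its blocked limma adjusted p was 0.0416 when loci under 300 bp were left out before rescaling and 0.0644 with quantile normalization. With Eomes this made 2 of 27 pathway genes. Both had every tamoxifen sample below the untreated ones, as for 5.4% of all genes tested.

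**Figure D4:**
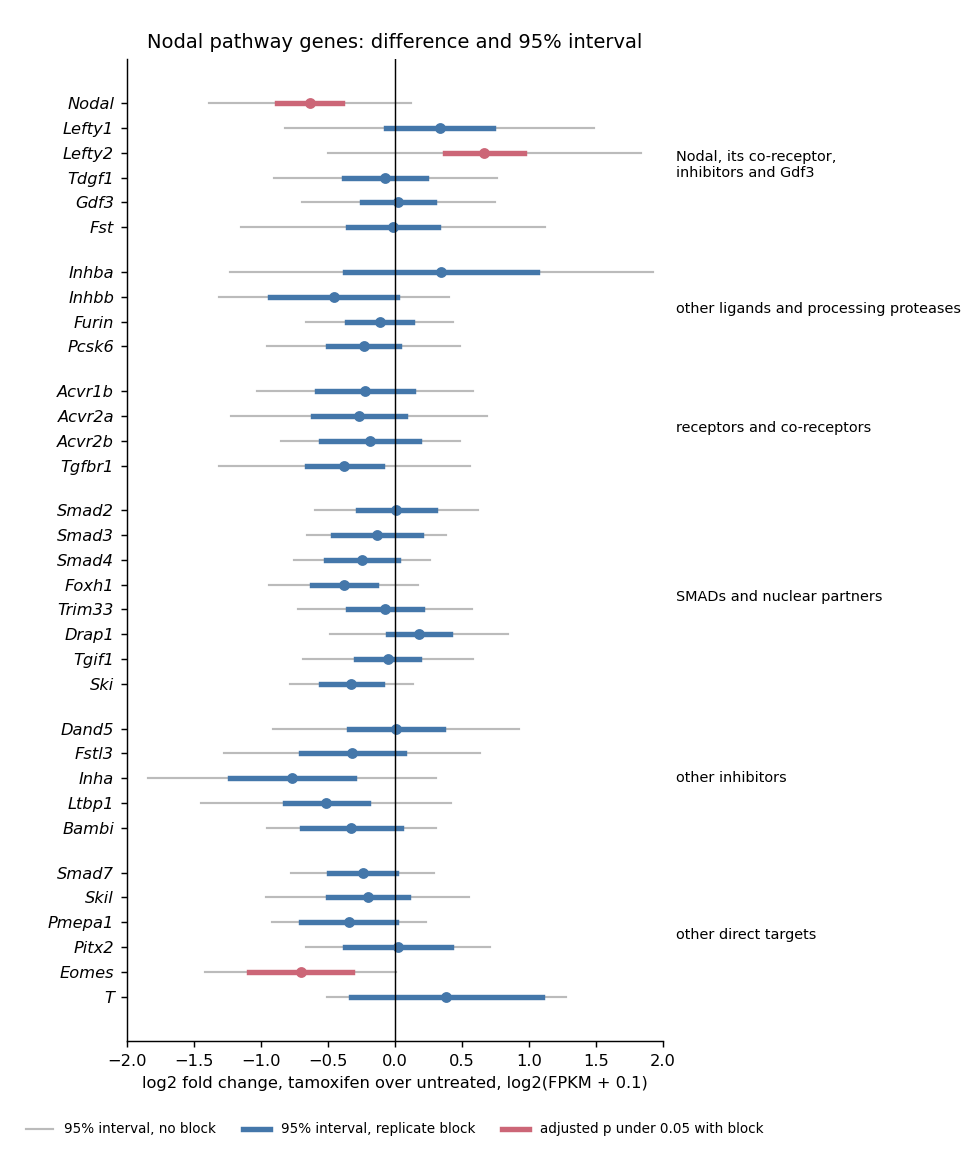
log2 difference between tamoxifen and untreated samples on the log2(FPKM + 0.1) scale (x axis) for the tested genes of the pathway (y axis), with thin grey lines for 95% intervals without a block and thick lines for 95% intervals with the replicate block. Thick lines are red where the adjusted p with the block is under 0.05, which holds for Nodal, Lefty2 and Eomes alone.

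Markers of other cells that ESC cultures can hold were set beside these results. The 8 extraembryonic endoderm markers summed to between 11.2 and 15.8 FPKM in untreated and between 7.06 and 12.5 FPKM in tamoxifen samples, with Foxa2 at 0 in tamoxifen replicate 3. Of the 5 that could be tested 0 passed without a block, with 2 at an unadjusted limma p under 0.05, as for 4.79% of all genes tested. Dab2, which was higher within all 3 replicate numbers (log2 difference 0.23), and Pdgfra, which was lower within all 3 (−0.44), passed in neither fit. With the block 3 were lower, as were 6.06% of all genes tested, namely Gata4 (log2 difference −0.85, limma adjusted p = 0.0359), Gata6 (−1.43, 0.0174) and Lama1 (−0.66, 0.0237). Each of these 3 calls was lost in the blocked fit without replicate 2 (limma adjusted p = 0.0924 to 0.197), and that of Gata4 also without replicate 1 (0.0669) and with quantile normalization (0.0531). With rescaling to a common sum those of Gata4 (0.141) and Lama1 (0.211) were lost, and both were kept when loci under 300 bp were left out first (0.0260 and 0.0153). The 6 mesendoderm markers, which include Eomes, summed to between 7.07 and 8.29 FPKM in untreated and between 4.29 and 5.64 FPKM in tamoxifen samples, without overlap. How often sums of other genes separate the groups was not examined. Eomes and Wnt3 made up most of the sum (untreated means of 3.04 and 2.40 FPKM). T went the other way, with means of 0.781 FPKM in untreated and 1.13 FPKM in tamoxifen samples (log2 difference 0.38, higher within 2 of 3 replicate numbers). Of the 3 tested 1, Eomes, was lower with the block, as were 6.06% of all genes tested. Of the 8 pluripotency markers, the 5 formative and primed markers and the 11 tested feeder markers 0 passed in either fit and 0 had an unadjusted limma p under 0.05 without the block. Among the pluripotency markers 4 were higher within all 3 replicate numbers, as were 24.8% of all genes tested, and 1 was lower, as were 28.2%. The groups separated for 2 of them, Nanog with tamoxifen samples above (3.09% of all genes) and Tfcp2l1 with tamoxifen samples below (5.4%). Whether the share of differentiating cells differed between the groups, and whether it had a part in the Nodal and Eomes values, was not tested.

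The genes whose pattern over the 6 samples was most like that of Nodal, by the root-mean-square difference of centered log2(FPKM + 0.1), were Tram1l1 (0.0607), Snx19 (0.0805), Slc19a2 (0.0808), Zfp185 (0.0819) and Itpr3 (0.0932), among 12991 candidates. For comparison, the root-mean-square deviation of Nodal itself was 0.513. For Lefty1 the nearest genes were Acsl3 (0.160), Tpcn2 (0.201), Aqp1 (0.211), Rdh11 (0.213) and Thbs4 (0.225), against 0.698 for Lefty1 itself. The members had been left out of the candidates. None of these lists held another gene of the pathway lists.

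The ZF-CxxC domain binds DNA that contains nonmethylated CpG dinucleotides, and the promoters of the genes with a sequence in the reference table are therefore shown with every CpG in capitals. RefSeq (GRCm38.p6) held a window for 3 of the 7 genes, and the 250 bases upstream of the annotated start, read 5′ to 3′ on the strand of the gene, are chr10:61417722-61417971 (+) for Nodal, chr9:110946159-110946408 (−) for Tdgf1 and chr4:82885152-82885401 (−) for Cer1. These coordinates belong to another build than the mm9 positions above.
Nodal: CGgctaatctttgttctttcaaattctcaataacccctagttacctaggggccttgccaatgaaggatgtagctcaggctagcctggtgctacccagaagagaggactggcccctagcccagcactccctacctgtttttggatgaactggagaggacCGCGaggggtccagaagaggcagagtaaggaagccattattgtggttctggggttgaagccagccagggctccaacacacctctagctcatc
Tdgf1: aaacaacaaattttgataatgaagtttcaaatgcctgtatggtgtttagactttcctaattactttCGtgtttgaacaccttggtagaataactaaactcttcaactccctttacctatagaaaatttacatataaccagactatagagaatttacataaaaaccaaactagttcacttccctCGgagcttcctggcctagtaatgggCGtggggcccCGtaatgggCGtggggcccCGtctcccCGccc
Cer1: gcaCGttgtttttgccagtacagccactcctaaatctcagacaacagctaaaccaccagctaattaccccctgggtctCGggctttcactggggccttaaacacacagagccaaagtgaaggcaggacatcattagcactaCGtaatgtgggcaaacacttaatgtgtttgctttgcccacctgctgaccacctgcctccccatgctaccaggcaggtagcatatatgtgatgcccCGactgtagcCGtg

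The windows end at the annotated start, so CpG beyond it were not counted, and the counts do not show whether a gene has a CpG island. The Nodal window held 3 CpG, fewer than the median of 6 over 32851 promoter windows of this length, and 29.0% of windows held fewer than Nodal. The Tdgf1 window held 7 CpG with a GC content of 42.0% and an observed over expected CpG ratio of 0.648, and 53.7% of windows held fewer. The Cer1 window held 5 CpG with a GC content of 51.6% and a ratio of 0.309, and that of Nodal had a GC content of 53.2% and a ratio of 0.17. The FOXH1 motifs AATCCACA and AATACACA and the palindromic SMAD motif GTCTAGAC, searched on both strands, were found in 0.72%, 0.89% and 0.17% of all windows and in none of these 3. Motifs this rare would seldom occur in any 3 windows, and sequence outside the windows was not searched. Their absence therefore does not bear on whether these genes are targets of the pathway.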

How the data were processed

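Total RNA was analysed by directional paired-end sequencing of polyA+ RNA in 3 untreated and 3 tamoxifen samples. The authors aligned reads to mm9 with TopHat2 and deposited FPKM per gene row. The methods name Cuffdiff 2.1.1 for expression values, and the sample records also list Cufflinks 2.1.1. Which of them gave the deposited values is not settled. How reads that match several genes were divided is not given in the sources used here. The tables hold no counts, so depth is unknown. In what the authors deposited, between 16.1% and 19.4% of rows at 1 FPKM or more, and 28 of 36 values of the tested members, lay above their own upper confidence bound, and the bounds were not used.

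FPKM of 23874 rows were summed over 23369 gene names, and 6 names with a failed quantification were left out. The 12997 genes that reached 0.5 FPKM in 3 or more samples entered limma 3.58.1 after log2(FPKM + 0.1) transformation (eBayes with trend, R 4.3.3), two-sided, with Benjamini-Hochberg adjustment over all genes tested and a threshold of 0.05. The same model was refitted with a block for replicate number, whose terms were also tested with an F test. Deviations from the group means correlated by 0.544, 0.605 and 0.506 between same-numbered samples, each over 0.1, and 6 of 6 samples correlated best with their own number, so the numbers were taken to pair the samples. The study's methods call the samples biological triplicates, while the labels do not say whether these were separate cultures, and p-values measure the spread between these samples. The fits were also run on simulated data with independent noise around replicate means, which checks neither the pairing nor the scaling of the real samples.

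Members and gene lists were chosen with earlier results of these data known. Named were the members, pathway genes past the threshold in either fit, otherwise up to 3 examples a list in list order, the 5 genes nearest to Nodal and to Lefty1, markers by counts and ranges, and Kdm2b. Foxh1, Ski, Drap1, single markers and the ratios were chosen after their values were seen. Transcript overlaps used NCBIM37 (mm9) with its GENCODE annotation, blastn 2.17.0 and alignments of at least 300 bp. Alternatives were pseudocounts of 1 and 0.01, scaling to a common sum per sample (TPM), omission of loci under 300 bp, quantile normalization, other filters, the highest row per gene name, eBayes without trend and omission of each replicate.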

Additional observations from a re-analysis of the deposited data

How the results depend on the processing

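Nodal kept its negative and Lefty2 its positive sign in all 25 alternatives (log2 differences of −0.88 to −0.33 and of 0.28 to 1.24). Either passed the threshold in 8 of 10 settings with the replicate block and in none without it, where the lowest adjusted limma p was 0.762 for Nodal and 0.846 for Lefty2. Beside the losses given above, Lefty2 was lost with the block and eBayes without trend (adjusted p = 0.059). The cause was not tested. With the replicate block, 2 members and 1 other pathway gene passed against 0 and 0 without it, and 563 genes were higher and 787 lower against 3 and 1. The block together with a further change gave 558 higher and 586 lower genes with quantile normalization (2 members), 421 and 1187 without loci under 300 bp and with TPM scaling (2 members, 5 other pathway genes), 659 and 931 with a pseudocount of 1 (2 and 4), 520 and 719 with a pseudocount of 0.01 (2 and 1), 328 and 583 with eBayes without trend (1 and 2), and 431 and 336 with TPM scaling (1 member). The last 4 combinations were chosen after seeing the data. With the block and without a replicate, the counts ran from 36 to 744 higher and 43 to 1011 lower genes, with 359 and 478 without replicate 3, 1 to 2 members and 0 to 2 other pathway genes. Without a block, a pseudocount of 1 gave 0 lower genes, a filter of 1 FPKM in all 6 samples gave 0 higher and 0 lower genes, and leaving out a sample gave 2 to 5 higher and 0 to 7 lower genes. The F test by replicate number kept 3 of 6 members with TPM scaling. Signs turned for Lefty1, Tdgf1, Gdf3 and Fst and for 8 other pathway genes named above, none of which passed in the fits with and without the block. TPM scaling gave 0.029 for Tdgf1 and 0.087 for Fst with or without the block, quantile normalization gave −0.038 for Gdf3 and 0.082 for Fst with or without it, and TPM scaling without loci under 300 bp gave −0.063 for Gdf3, −0.076 for Smad2 and −0.077 for Dand5. With the block, leaving out replicate 1 gave −0.064 for Gdf3, −0.089 for Inhba and 0.025 for Smad3, leaving out replicate 2 gave 0.10 for Tdgf1, 0.095 for Fst, −0.099 for Smad2 and −0.10 for Dand5, and leaving out replicate 3 gave −0.034 for Gdf3 and 0.028 for Fst. Leaving out a single sample without the block gave log2 differences of −0.060 to 0.88 for Lefty1, −0.28 to 0.28 for Tdgf1, −0.20 to 0.34 for Gdf3, −0.54 to 0.36 for Fst, −0.48 to 0.77 for Inhba, −0.56 to 0.077 for Acvr1b, −0.59 to 0.12 for Acvr2a, −0.15 to 0.18 for Smad2, −0.32 to 0.34 for Dand5, −0.65 to 0.022 for Fstl3 and −0.46 to 0.14 for Skil. Depth is unknown, so the precision of single values cannot be given. The replicate block changed no other call among the members, pathway genes and markers than those printed.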
